A study of Homo sapiens with 24 samples.

Results

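The 29 genes examined encode enzymes and regulators of cholesterol and fatty acid synthesis. The rule is a list of gene names, and each matched 1 of the 58051 gene identifiers in the files. By role they comprised 7 genes of the mevalonate arm, 3 that lead from farnesyl diphosphate through squalene to lanosterol, 8 that convert lanosterol to cholesterol, 4 of SREBP control and sterol transport, and 7 of fatty acid synthesis. The first 18 are called sterol enzymes below. RNA-seq compared clones of the human colorectal cancer cell lines HT29, HCT116 and SW480 with intact *CTNNB1* (WT) with clones in which *CTNNB1*, the gene for β-CATENIN, carried frameshifts made by CRISPR/Cas9 (KO). HT29 and SW480 carry mutated *APC* and HCT116 carries a mutant form of *CTNNB1* that escapes degradation. The WT clones had passed through the same CRISPR/Cas9 and single-cell cloning procedure and kept an unaltered targeted sequence, and all cells grew in medium with fetal calf serum. The HT29 clones were WT11, WT40, KO28 and KO38, the HCT116 clones WT4, WT6, KO44 and KO47, and the SW480 clones WT4, WT5, KO17 and KO21. Each clone gave 1 library in round A and 1 in round B, hence 24 libraries, 4 per line and genotype. A genotype was thus represented by 2 clones per line, p-values treat its 4 libraries as independent, and differences between genotypes and differences between single clones cannot be fully told apart. Values are normalized counts, that is reads per gene divided by 1 size factor per library, and where 4 values are listed they stand for rounds A and B of one clone followed by rounds A and B of the other.

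Cells build cholesterol from acetyl-CoA by way of mevalonate, farnesyl diphosphate, squalene and lanosterol, and fatty acids from acetyl-CoA by way of malonyl-CoA and palmitate. Genes of both routes are switched on by SREBP transcription factors, which are encoded by *SREBF1* and *SREBF2*, held in the endoplasmic reticulum by INSIG proteins when sterols are plentiful, and released for processing when sterols run low, with the *SREBF2* product acting mainly on sterol genes and the main *SREBF1* product mainly on fatty acid genes. Oxysterols activate the LXR receptors, which raise *SREBF1* and the genes of cholesterol efflux. In colorectal cells these routes supply membranes, and serum lipoproteins are another source of cholesterol.

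The reads assigned to genes numbered 22297049 to 29068378 in a library (median 27486225). The HCT116 library KO47A stood apart, with reads in 35449 gene identifiers compared with 20256 to 24944 in the other 23 libraries, and its part in the HCT116 values was not tested beyond leaving it out. *CTNNB1* transcript levels matched the genotype labels, with 5883 to 6113 in WT and 256 to 337 in KO libraries of HT29, 10512 to 12800.1 and 187 to 255 in HCT116, and 43114 to 50939.5 and 839 to 1312 in SW480. The epithelial keratins *KRT8* and *KRT18* were abundant in all 24 libraries, at no less than 70711 and 23452. The colonic markers *KRT20* and *LGALS4* were abundant in HT29 and at or below 104 and 3.68 in HCT116 and SW480, and *CDH1* was at or below 85.9 in SW480. Markers of leukocytes, fibroblasts, endothelium and liver, of which 9 of 10 were matched, summed to 14.2 to 462 per library, and *PTPRC*, *CD3E* and *CD68*, the defining leukocyte markers, stayed at or below 4.28, 6.76 and 2.82.

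Loss of *CTNNB1* was accompanied by lower levels of most sterol genes in SW480, by little change in HCT116 apart from a rise of *ELOVL6*, and by no called change in HT29. In SW480, 23 of the 29 genes passed the test (adjusted p under 0.05 by limma over all genes tested), compared with 48.1% of all genes tested. Of these, 21 fell, which is 72.4% of the 29 compared with 22.1% of all genes, and 2 rose, compared with 26.1%. The median log2 fold change of the 29 genes was −0.67, whereas that of all genes tested was −0.0042. In HCT116, 4 of 29 genes passed, which is 13.8% and close to the 14% of all genes. There 3 rose, compared with 8.05% of all genes, 1 fell, compared with 5.93%, and the medians were −0.025 for the members and −0.014 for all genes. In HT29, limma called 0 of the 28 genes that were tested, compared with 2.56% of all genes. At an unadjusted p under 0.05 it counted 2 of the 28 there, *SQLE* and *SC5D*, and 2417 of all 14921 genes tested. DESeq2 and edgeR called 0 members in HT29. *FADS2* did not reach the minimum level for testing in HT29. In this bulk RNA, a lower level per cell and a smaller share of cells expressing a gene cannot be told apart.

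**Figure D1:**
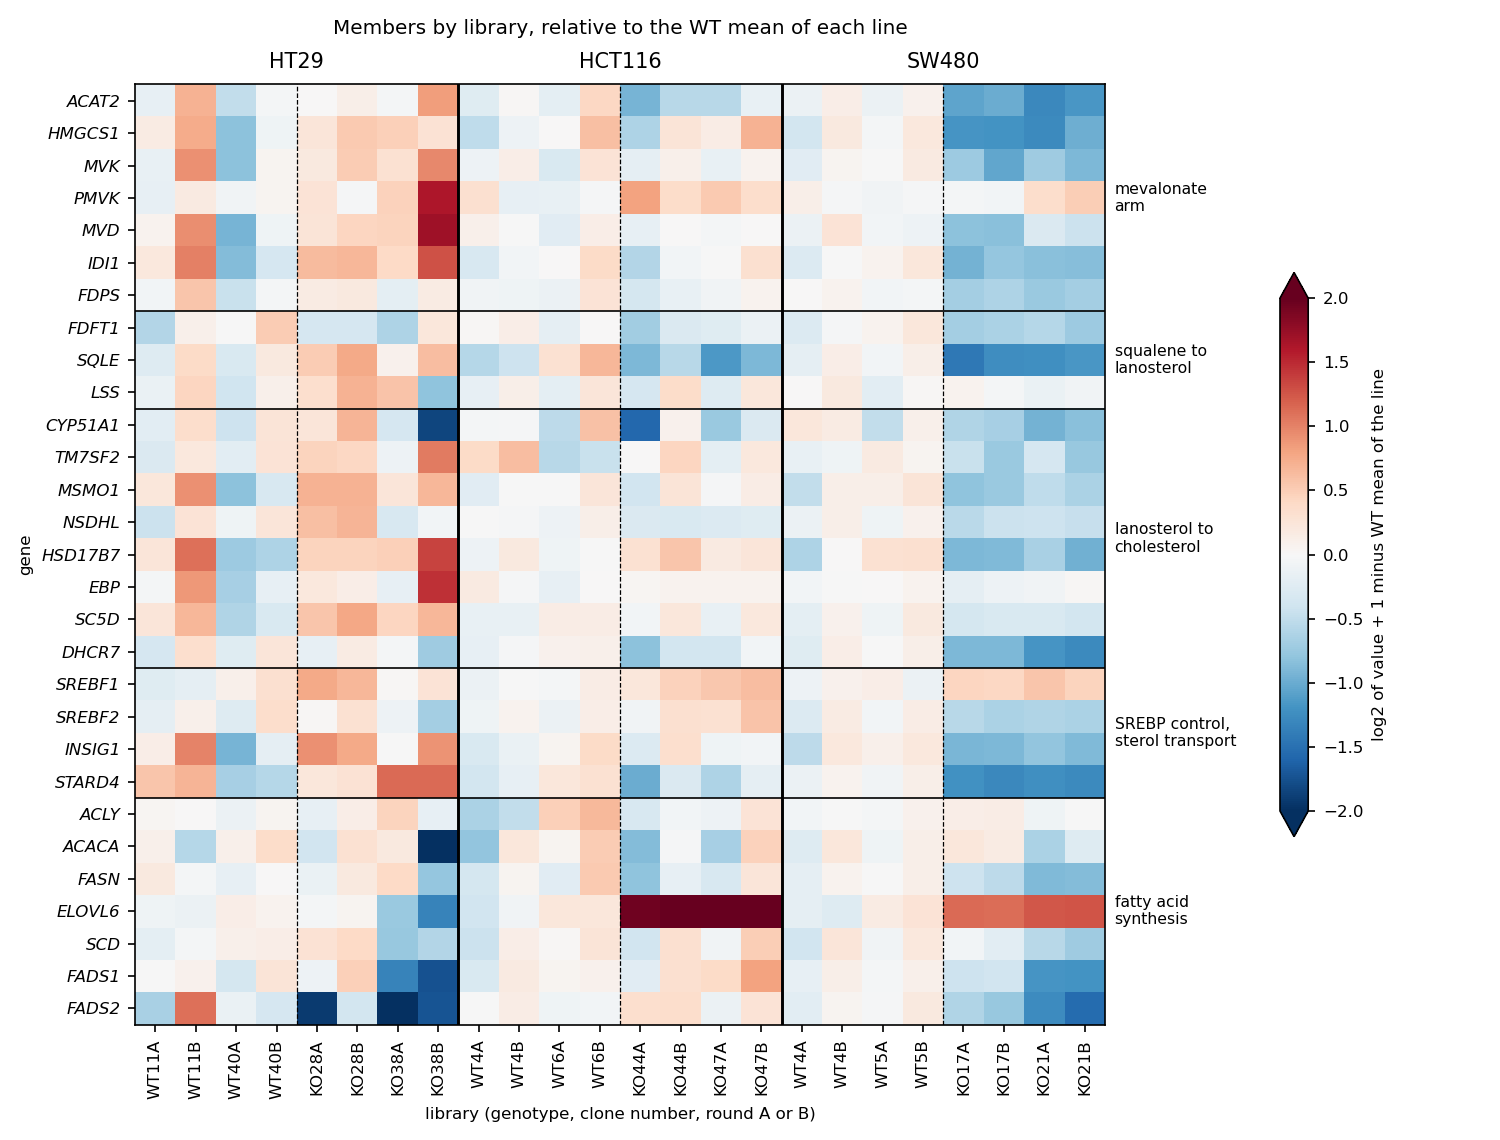
Heat map of the 29 genes (rows, grouped by role) in the 24 libraries (columns, WT left and KO right of the dashed line within each line), coloured by the log2 of the value plus 1 minus the WT mean of the same line, from blue (lower) to red (higher). The SW480 KO libraries are blue for most sterol genes, *ELOVL6* is red in the KO libraries of HCT116 and SW480, and the HT29 library KO38B departs from KO38A in both directions.

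With the threshold used in the study, which also asks for an absolute log2 fold change over 1, 7 of the 29 genes were differentially expressed in SW480, namely *SQLE*, *STARD4*, *HMGCS1*, *ACAT2*, *DHCR7*, *FADS2* and *ELOVL6*. This is 24.1%, compared with 17.5% of all genes. In HCT116 only *ELOVL6* met it, with a background of 5.06%, and in HT29 no member did, with a background of 2.3%. The 4 KO libraries lay entirely above or below the 4 WT libraries for 23 genes in SW480, for 4 in HCT116 (*ELOVL6*, *SREBF1*, *PMVK* and *NSDHL*) and for none of the 28 in HT29. Over all genes tested, such separation was found for 46.2%, 20.5% and 13%.

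In SW480 KO clones, 15 of the 18 sterol enzymes fell. Their KO means ran from 41.4% of the WT mean for *SQLE* to 78.9% for *SC5D*. *SQLE* (ENSG00000104549, chromosome 8 from 126010739 to 126034525) encodes squalene epoxidase, a rate-limiting enzyme of the sterol branch. Its values in SW480 were 2744 and 3406 in WT4 and 2997 and 3386 in WT5, and 1155 and 1315 in KO17 and 1327 and 1387 in KO21. Every KO library lay below every WT library, and both KO clones were alike. The log2 fold change was −1.27 (SE 0.090, adjusted p = 1.42e-06). *HMGCS1* (ENSG00000112972, chromosome 5 from 43287572 to 43313614), which makes HMG-CoA, stood at 1097 and 1609 in WT4 and 1371 and 1634 in WT5, and at 621 and 617 in KO17 and 582 and 716 in KO21. WT4A was the lowest WT library and still exceeded the highest KO library. The fold change on the log2 scale was −1.16 (SE 0.13, adjusted p = 3.68e-05). *ACAT2* (ENSG00000120437, chromosome 6 from 160183077 to 160200144) is the cytosolic thiolase that joins 2 acetyl-CoA units at the start of the route, and it had 2953 and 3512 in WT4 and 2923 and 3400.0 in WT5, and 1539.8 and 1600.1 in KO17 and 1307 and 1424 in KO21. Rounds of one clone differed less than genotypes, and the log2 fold change was −1.12 (SE 0.089, adjusted p = 3.33e-06). These 3 genes were called in 22 of 22 alternative analyses, with a highest adjusted p of 0.00163 for *SQLE*, 0.00285 for *HMGCS1* and 0.00273 for *ACAT2*. Exons of *HMGCS1* overlap an antisense gene over 2497 bases and those of *ACAT2* overlap *TCP1* over 454 bases, and the library kit does not mark the strand, so that reads in these stretches cannot be assigned with certainty.

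Further along the mevalonate arm, the kinase *MVK* fell by 0.84 on the log2 scale, the decarboxylase *MVD* by 0.59, the isomerase *IDI1* by 0.85 and the farnesyl diphosphate synthase *FDPS* by 0.68, with adjusted p = 0.000175, 0.00649, 6.25e-05 and 7.86e-06. *PMVK*, the kinase that follows *MVK*, was not called, at 685 and 621 in WT4 and 599 and 619.5 in WT5 and at 616 and 609 in KO17 and 806 and 885 in KO21. Only the KO21 libraries were above the WT libraries. Squalene synthase *FDFT1*, the first enzyme committed to sterols, fell by 0.65 (adjusted p = 0.000364), while *LSS*, which closes squalene epoxide into lanosterol, had a log2 fold change of −0.040 (SE 0.092, adjusted p = 0.746) and overlapping libraries.

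Of the 8 enzymes that turn lanosterol into cholesterol, 7 fell in SW480. *DHCR7*, the reductase of the last step in one branch, stood at 3048 and 3943 in WT4 and 3564 and 3875 in WT5, and at 1921 and 1917 in KO17 and 1584 and 1482 in KO21. Both KO clones were below all WT libraries and KO21 was below KO17. Its log2 fold change was −1.07 (SE 0.11, adjusted p = 2.34e-05). The demethylase *CYP51A1* fell by 0.76, the reductase *TM7SF2* by 0.57, the methylsterol oxidase *MSMO1* by 0.68, the decarboxylating dehydrogenase *NSDHL* by 0.46, the ketoreductase *HSD17B7* by 0.85 and the desaturase *SC5D* by 0.33 on the log2 scale, with adjusted p from 0.000508 for *NSDHL* to 0.00961 for *SC5D*. The isomerase *EBP* was not called, with 2280.2 to 2479 in WT and 2102 to 2407 in KO libraries. *CYP51A1* was a weakly expressed gene, with 92.7 to 153 in WT and 67.2 to 85.6 in KO libraries, and its exons overlap those of other genes over 246 bases.

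All 4 genes of SREBP control and sterol transport passed the test in SW480, 3 lower and *SREBF1* higher. *STARD4* (ENSG00000164211, chromosome 5 from 110831731 to 110848288) encodes a soluble sterol transport protein and had 4626 and 5249 in WT4 and 4789 and 5459 in WT5, and 2157 and 2064 in KO17 and 2149 and 2082 in KO21. The KO libraries differed from each other by far less than the WT libraries did, and the log2 fold change of −1.25 (SE 0.068, adjusted p = 2.26e-07) left 42.0% of the WT mean. *SREBF2*, which encodes the SREBP that acts mainly on sterol genes, was at 2901 and 3923 in WT4 and 3369.7 and 3879.5 in WT5, and at 2382 and 2242 in KO17 and 2299 and 2250.3 in KO21. *INSIG1*, an SREBP target whose product retains SREBP in the endoplasmic reticulum, was at 1259 and 2095 in WT4 and 1926 and 2075 in WT5, and at 953 and 966 in KO17 and 1046 and 981 in KO21. In both genes WT4A was the lowest WT library, above all KO libraries. The log2 fold change was −0.61 (SE 0.095, adjusted p = 0.000433) for *SREBF2* and −0.87 (SE 0.15, adjusted p = 0.000757) for *INSIG1*. *SREBF1* (ENSG00000072310, chromosome 17 from 17713713 to 17740316) moved the other way, from 2051 and 2351 in WT4 and 2437 and 2038 in WT5 to 2971 and 2961 in KO17 and 3257 and 2999 in KO21. All KO libraries exceeded all WT libraries, and the log2 fold change was 0.46 (SE 0.077, adjusted p = 0.000674). Exons of *SREBF1* overlap *RAI1* over 556 bases, and those of *SREBF2*, *STARD4*, *IDI1* and *FDPS* overlap antisense genes over 731, 124, 643 and 693 bases.

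The 7 fatty acid genes did not move together in SW480, where 3 fell, 1 rose and 3 were not called. *ELOVL6* (ENSG00000170522, chromosome 4 from 110967002 to 111120355), which lengthens palmitate to stearate, rose to 226% of the WT mean. Its values were 358 and 337 in WT4 and 451 and 490.3 in WT5, and 889 and 881 in KO17 and 959.9 and 967 in KO21. Both KO clones were close to each other and above all WT libraries, at a log2 fold change of 1.19 (SE 0.12, adjusted p = 2.10e-05). The fatty acid synthase *FASN* fell by 0.67 (adjusted p = 0.000777), and the desaturases of polyunsaturated fatty acids, *FADS1* and *FADS2*, fell by 0.79 (adjusted p = 0.00715) and 1.04 (adjusted p = 0.00134) on the log2 scale. *FADS1* stood at 4826 and 5889 in WT4 and 5279 and 5814 in WT5, and at 4084 and 4153 in KO17 and 2408 and 2361 in KO21, so that KO21 was far below KO17. *FADS1* and *FADS2* share exon sequence on opposite strands over 490 bases. *ACLY*, which supplies cytosolic acetyl-CoA, and *ACACA*, which makes malonyl-CoA, had log2 fold changes of 0.050 and −0.13 (adjusted p = 0.591 and 0.599). The stearoyl-CoA desaturase *SCD* had a log2 fold change of −0.38 (SE 0.17, adjusted p = 0.0913), with overlapping libraries.

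When rounds A and B of each SW480 clone were averaged, so that 2 KO clones were compared with 2 WT clones, 18 of the 29 genes were called, and *MVD*, *CYP51A1*, *HSD17B7*, *SC5D* and *FADS1* were not. The count lay between 20 and 26 when single libraries or clones were left out. Within round A alone the median log2 difference of the 18 sterol enzymes between KO and WT was −0.55, with 16 of 18 negative, and within round B it was −0.83, with 17 of 18 negative. In the libraries taken singly, the median over the sterol enzymes relative to the WT mean lay between −0.17 and 0.11 for WT and between −0.75 and −0.61 for KO. Other transcripts moved with the genotype in SW480. Of the markers of cell types that the cultures should not hold, 4 were tested, 1 rose and 2 fell, compared with 26.1% and 22.1% of all genes. Log2 fold changes of the 4 ran from −5.77 to 2.98. *VWF*, the 1 that rose, was at 9.65 to 27.4 in WT and 114 to 234 in KO libraries. The sum over the 9 markers was 202 to 444 for WT and 248 to 374 for KO. Of the colorectal list, 6 genes were tested in SW480, of which 2 fell and 4 were not called, while 22.1% of all genes fell. The sum of the list was 136587 to 189306 for WT and 146176 to 165093 for KO. The epithelial gene *EPCAM* fell by 0.99 on the log2 scale, and the intestinal factor *CDX2* fell by 3.49. Their part in the changes of the sterol genes was not tested.

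**Figure D2:**
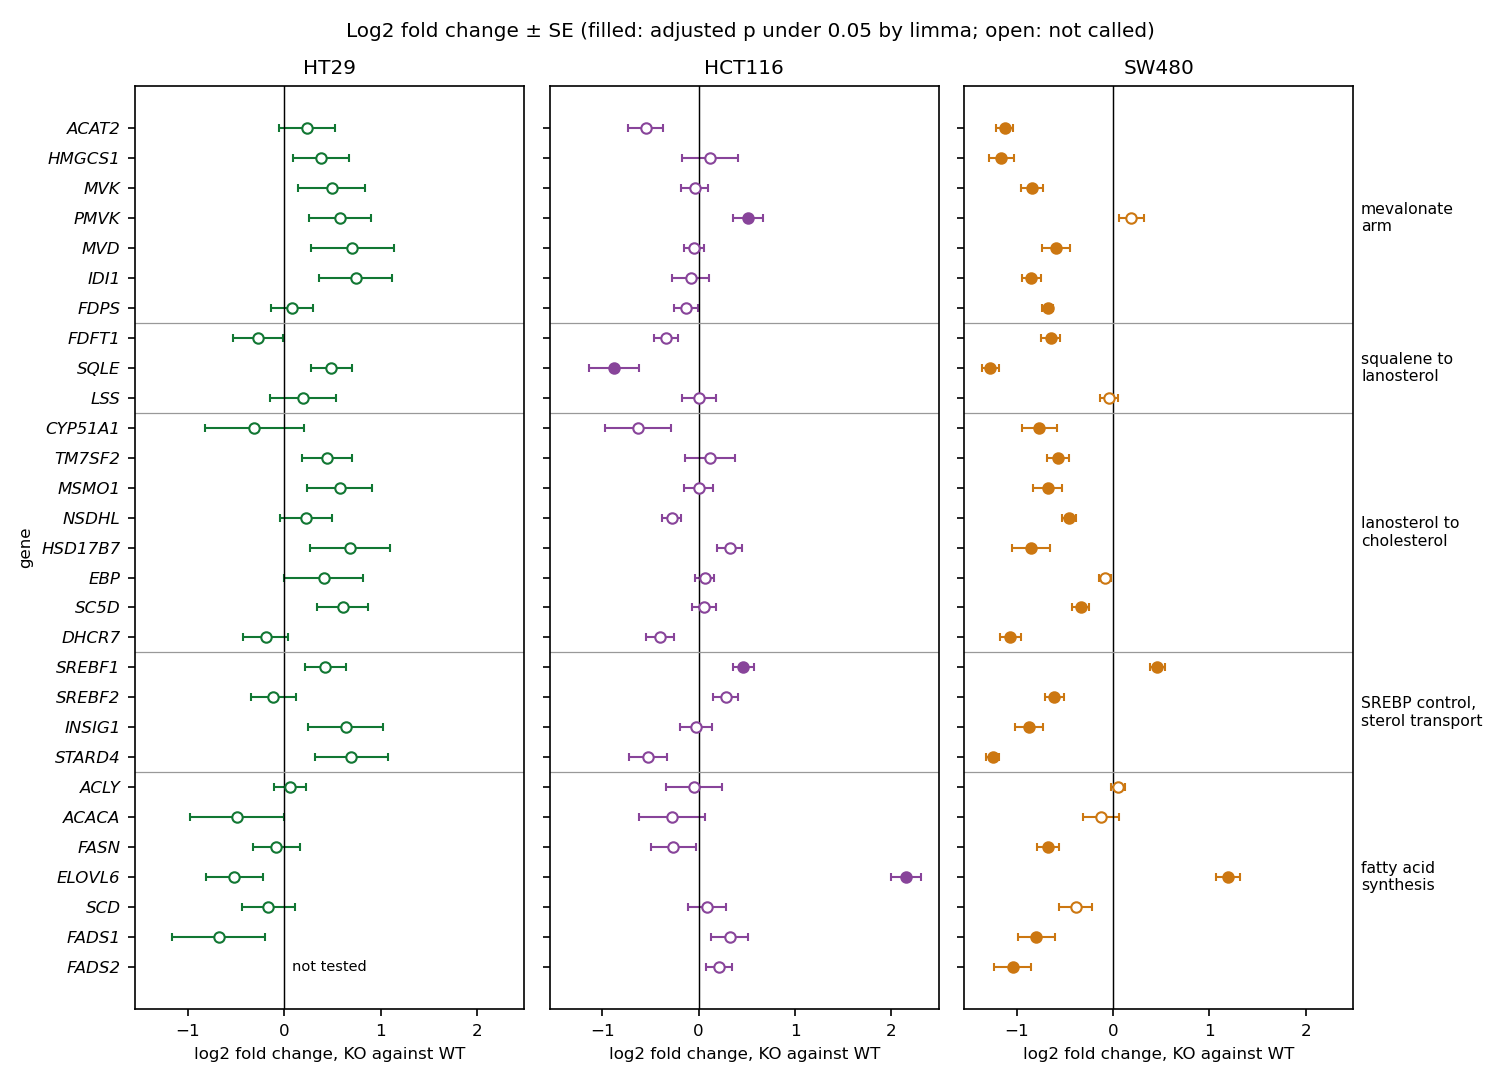
Log2 fold change of KO against WT (x axis) for each gene (y axis, grouped by role) in HT29, HCT116 and SW480, with bars for the standard error from limma, filled where the adjusted p was under 0.05 and open otherwise. In SW480 most points lie left of 0, down to −1.27 for *SQLE*, with *ELOVL6* at 1.19 and *SREBF1* at 0.46 on the right, in HCT116 *ELOVL6* stands alone at 2.15, and all HT29 points are open.

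Because so many sterol genes moved together in SW480, the letters of their promoters were read from RefSeq on GRCh38.p14, in windows from 250 bases before to 50 bases after each annotated start. Windows were found for 25 of the 29 genes, 34 windows in all since 7 genes had more than 1, and those of *FDFT1*, *ACAT2*, *SQLE* and *FASN* were not used here. The CCAAT box, searched as CCAAT on both strands, occurred in 24 of the 34 windows (70.6%, 20 genes) and in 34.6% of all 35116 windows of the same length. The classical sterol response element of SREBP factors, searched as TCACNCCAC on both strands, occurred in 1 of the 34, that of *SREBF2*, and in 1.13% of all windows. Its shorter core CACNCCAC, which every longer match also contains, occurred in 7 of the 34 (6 genes) and in 5.87% of all windows. The E-box CACGTG occurred in 4 of the 34 (3 genes) and in 7.26% of all. The TCF/LEF motif CTTTGAT and the direct repeat bound by LXR were in 0 of the 34 and in 2.62% and 0.0199% of all. These counts describe letters only, since many binding sites differ from the searched forms or lie outside the windows. Windows of one gene can overlap, so that a site can be counted more than once. Those of *SC5D* and *ACLY* hold the same motifs at shifted positions. The windows below show a gene that fell strongly (*STARD4*), a gene that fell and has 5 CCAAT boxes, the most found in a member window and shared with *NSDHL* (*MVK*), the window with the full sterol response element (*SREBF2*) and a gene that rose (*ELOVL6*). Capitals mark CCAAT boxes, written ATTGG where they lie on the other strand, and TCACNCCAC.
STARD4 (chr5:111512486-111512785, minus strand): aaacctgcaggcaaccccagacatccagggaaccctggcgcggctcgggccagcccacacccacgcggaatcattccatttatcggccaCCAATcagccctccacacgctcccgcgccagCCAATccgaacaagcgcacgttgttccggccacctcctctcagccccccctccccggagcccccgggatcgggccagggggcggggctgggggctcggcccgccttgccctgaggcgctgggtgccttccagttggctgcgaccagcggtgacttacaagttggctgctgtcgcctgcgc
MVK (chr12:109573544-109573843, plus strand): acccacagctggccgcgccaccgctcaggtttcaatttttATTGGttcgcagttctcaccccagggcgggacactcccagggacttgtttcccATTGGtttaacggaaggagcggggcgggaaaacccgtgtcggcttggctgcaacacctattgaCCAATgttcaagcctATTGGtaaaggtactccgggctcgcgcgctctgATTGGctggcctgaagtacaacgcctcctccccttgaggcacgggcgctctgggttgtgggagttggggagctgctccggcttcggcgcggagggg
SREBF2 (chr22:41832855-41833154, plus strand): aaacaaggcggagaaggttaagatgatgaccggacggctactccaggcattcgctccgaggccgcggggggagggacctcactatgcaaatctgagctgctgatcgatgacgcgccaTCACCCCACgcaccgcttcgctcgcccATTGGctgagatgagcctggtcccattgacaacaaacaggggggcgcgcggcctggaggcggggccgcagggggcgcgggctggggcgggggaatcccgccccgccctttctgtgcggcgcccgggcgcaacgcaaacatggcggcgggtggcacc
ELOVL6 (chr4:110198566-110198865, minus strand): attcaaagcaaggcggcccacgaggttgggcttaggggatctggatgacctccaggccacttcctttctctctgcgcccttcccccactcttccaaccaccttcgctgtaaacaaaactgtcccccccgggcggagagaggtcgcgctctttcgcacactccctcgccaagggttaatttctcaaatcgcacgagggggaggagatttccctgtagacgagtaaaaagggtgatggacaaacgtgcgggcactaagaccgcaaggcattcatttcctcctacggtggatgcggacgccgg

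*STARD4* has 2 CCAAT boxes, *MVK* 5 and *SREBF2* 1 beside its sterol response element. *ELOVL6*, the only gene of these that rose, has neither in this window. The windows of *CYP51A1* and *FADS1*, which fell in SW480, of *SREBF1*, which rose, and of *PMVK*, which was not called, also hold neither.

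*ELOVL6* showed the largest change of any member in any line, in HCT116, where the KO mean was 442% of the WT mean. Its values were 1409 and 1754 in WT4 and 2161 and 2162 in WT6, and 7079 and 8833 in KO44 and 7357 and 9820.2 in KO47, or 1872 ± 363 in WT and 8272 ± 1287 in KO libraries (SD, n = 4). The lowest KO library was above the highest WT library, and both KO clones rose alike. The log2 fold change was 2.15 (SE 0.16, adjusted p = 6.53e-06), was called in 22 of 22 alternatives with a highest adjusted p of 0.000391, and was 2.05 within round A and 2.26 within round B. *SREBF1* rose as well, from 5002 and 5394 in WT4 and 5284 and 5983 in WT6 to 6350.2 and 7471 in KO44 and 7859 and 8322 in KO47. Its KO libraries were all above its WT libraries, and the log2 fold change was 0.47 (SE 0.10, adjusted p = 0.0139). With rounds averaged its adjusted p was 0.153, the highest of its alternatives, and without WT4 or KO47 it was 0.0844 or 0.0664. *PMVK* had 574 and 411 in WT4 and 416 and 453 in WT6, and 805 and 593 in KO44 and 662 and 584 in KO47. The log2 fold change of 0.51 (SE 0.15, adjusted p = 0.0439) was at the edge of the threshold, and 9 of 22 alternatives called it, with adjusted p from 0.0150 to 0.255.

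*SQLE* was the only member that fell in HCT116 in the main fit, which does not use the pairing of rounds, and its libraries overlapped. It had 3587 and 4014 in WT4 and 6598 and 8466 in WT6, and 2853 and 3631 in KO44 and 2401 and 2857 in KO47. The WT clones differed more from each other than WT4 did from the KO clones, and KO44B was above WT4A. The log2 fold change was −0.87 (SE 0.26, adjusted p = 0.0487). With the round as a replicate block the adjusted p was 0.0650, without the clone WT6 the log2 fold change was −0.39 with an adjusted p of 0.224, and 8 of 22 alternatives called it, with adjusted p up to 0.339. *ACAT2*, with a log2 fold change of −0.55 (SE 0.18, adjusted p = 0.0674), was not called, but had an adjusted p of 0.0219 with the block, within a range of 0.00439 to 0.333 over its alternatives. *SREBF2* stood at 4917 and 5532 in WT4 and 4827 and 5747 in WT6, and at 5005 and 6575 in KO44 and 6490.0 and 7753 in KO47, and *INSIG1* at 2615 and 2954 in WT4 and 3377 and 4214 in WT6, and at 2665 and 4073 in KO44 and 3039 and 3112 in KO47. Libraries overlapped in both genes, with log2 fold changes of 0.28 (SE 0.13, adjusted p = 0.170) and −0.025 (SE 0.16, adjusted p = 0.939). *STARD4* had 1403 and 1598 in WT4 and 2114 and 2216 in WT6, and 900.0 and 1477 in KO44 and 1179 and 1582 in KO47, again with overlap, and a log2 fold change of −0.52 (SE 0.20, adjusted p = 0.103).

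The remaining 21 members had log2 fold changes from −0.63 for *CYP51A1* to 0.32 for *HSD17B7* in HCT116 and were not called. The median over the 18 sterol enzymes was −0.043 and close to that of all genes, with 8 positive and 10 negative. Within rounds A and B it was −0.11 and −0.040. The block left the count of called members at 4, with *ACAT2* in place of *SQLE*. Averaging the rounds of each clone or taking the clone as a random effect left 1 called member. Leaving out 1 library or clone gave 2 to 5, with 2 in the absence of WT6A, WT6B, KO44A, KO44B, KO47A or the clones WT6 or KO44. Without KO47A, *ELOVL6* and *SREBF1* were called, with log2 fold changes of 2.20 (adjusted p = 3.29e-05) and 0.44 (adjusted p = 0.0370), whereas *PMVK* and *SQLE* had 0.51 (adjusted p = 0.0826) and −0.78 (adjusted p = 0.112). The markers of cells that the cultures should not hold included 1 tested gene, which was not called, and summed to 289.9 to 462 in WT and 331 to 400.3 in KO libraries. Of the colorectal list, 6 genes were tested in HCT116. *EPCAM* and *CDH1* rose by 0.46 and 1.17 on the log2 scale, *CDX2* fell by 0.47, with 11 of 22 alternatives calling it, and *KRT20* fell from 58.2 to 104 in WT to 0 to 0.983 in KO libraries. The sum of the list was 109683 to 131909 for WT and 120943 to 158505 for KO. Their part in the values of the members was not tested.

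In HT29 no tested member separated the KO from the WT libraries. Of the 28 members tested, 19 had a positive and 9 a negative log2 fold change, and the median was 0.31 for the members and 0.031 for all genes. All 7 genes of the mevalonate arm were positive, from 0.081 for *FDPS* to 0.74 for *IDI1*, while 5 of the 6 tested fatty acid genes were negative, down to −0.68 for *FADS1*, and none of these was called. *SQLE*, the most abundant sterol enzyme per length in this line, stood at 9766 and 15098 in WT11 and 9383 and 13269.7 in WT40, and at 16464 and 19630.4 in KO28 and 12340.5 and 17863 in KO38. KO38A was below WT11B and WT40B, so that the libraries overlapped, and the log2 fold change was 0.49 (SE 0.21, adjusted p = 0.302). *STARD4* had 827 and 904 in WT11 and 357 and 379.6 in WT40, and 659 and 691 in KO28 and 1235 and 1242 in KO38. WT40 was lowest and KO38 highest, with WT11 above KO28, and the log2 fold change was 0.70 (SE 0.38, adjusted p = 0.400). *ELOVL6* had 3082 and 3021 in WT11 and 3565 and 3439.9 in WT40, and 3181 and 3392 in KO28 and 1954 and 1296 in KO38. KO28 lay among the WT libraries and KO38 below them, and the log2 fold change was −0.52 (SE 0.29, adjusted p = 0.417). *ACAT2* had 1717 and 3111 in WT11 and 1363 and 1883 in WT40, and 1942 and 2098 in KO28 and 1872 and 3449 in KO38, with overlapping libraries and a log2 fold change of 0.23 (SE 0.29, adjusted p = 0.707).

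The libraries of the regulators overlapped between genotypes in HT29 as well. *SREBF1* stood at 2399 and 2508 in WT11 and 3044 and 3561 in WT40, and at 4809 and 4500.1 in KO28 and 2875 and 3429 in KO38, high in KO28 and within the WT range in KO38. *SREBF2* stood at 4069 and 4932 in WT11 and 3844 and 5900.2 in WT40, and at 4713 and 5684 in KO28 and 4283 and 2896 in KO38, lowest in KO38B. *INSIG1* had 2056 and 3727 in WT11 and 981 and 1659.8 in WT40, and 3551 and 3175 in KO28 and 1872 and 3498 in KO38, lowest in WT40. Their log2 fold changes were 0.43 (SE 0.21, adjusted p = 0.357), −0.11 (SE 0.23, adjusted p = 0.833) and 0.64 (SE 0.39, adjusted p = 0.443). Without KO28, limma called 2 members, *ELOVL6* with a log2 fold change of −1.04 (adjusted p = 0.0438) and *FADS1* with −1.54 (adjusted p = 0.0473), and without WT11 it called *SC5D*, at 1.06 (adjusted p = 0.0480), whereas over their alternatives the adjusted p of these genes reached 0.984, 0.892 and 0.883. Without KO38B, 0 members were called. The median of the sterol enzymes between KO and WT was 0.53 within round A and 0.32 within round B. The colorectal list moved with the genotype, with 3 of 8 tested genes called, all higher in KO, while 2.56% of all genes were called. Its sum was 303492 to 440835 for WT and 436019 to 689238 for KO. The sum of the markers of other cell types ran from 14.2 to 26.3 and from 30.2 to 91.1, and their part in these values was not tested.

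**Figure D3:**
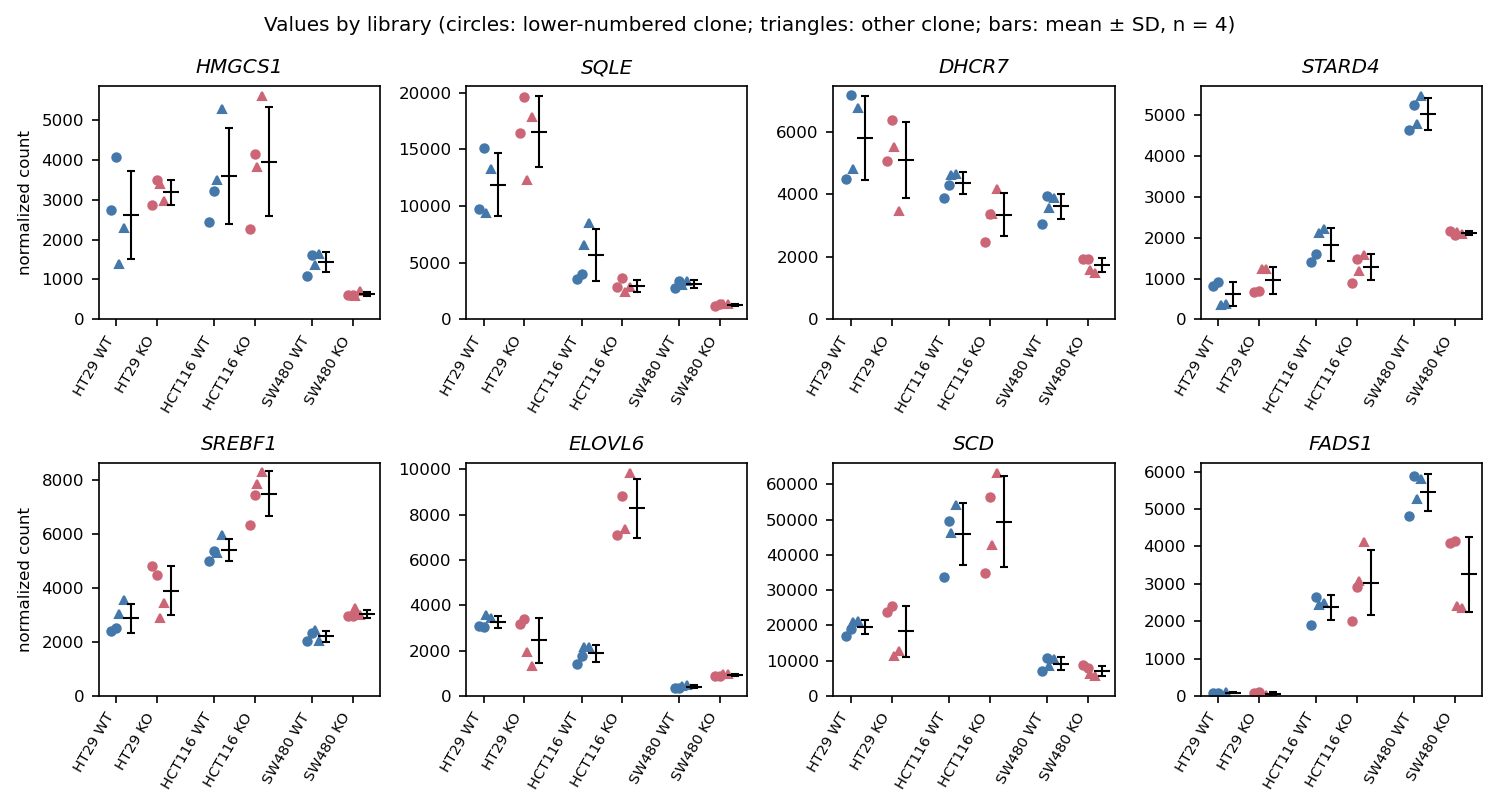
Normalized counts (y axes, from 0) of 8 members in the WT (blue) and KO (red) libraries of the 3 lines, with circles for the lower-numbered clone, triangles for the other clone and bars for the mean ± SD over 4 libraries. *HMGCS1*, *SQLE*, *DHCR7* and *STARD4* separate by genotype in SW480, *ELOVL6* does so in HCT116 and SW480, and in HT29 circles and triangles of one genotype lie apart for *STARD4*, *SREBF1*, *ELOVL6* and *SCD*.

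Clones of the same genotype were compared within each line, with the spread between rounds as the only error. In HT29, 3 of 28 members differed between WT40 and WT11, compared with 9.02% of all genes. All 3 were lower in WT40, *STARD4* by 1.23 (adjusted p = 0.00409), *MSMO1* by 1.14 (adjusted p = 0.0467) and *SC5D* by 0.91 (adjusted p = 0.0382) on the log2 scale. Between KO38 and KO28, 4 of 28 differed, compared with 16% of all genes. *STARD4* was higher in KO38, with a log2 difference of 0.88 (SE 0.17, adjusted p = 0.0137), whereas *SCD*, *ELOVL6* and *FADS1* were lower there, with −1.02, −1.04 and −1.72 (adjusted p = 0.00691, 0.0166 and 0.0156). *SCD* stood at 23735 and 25482 in KO28 and 11447 and 12857 in KO38, so that the 2 KO clones lay on either side of the WT libraries, at 16928 to 21199. The KO clones differed in 16 members without KO38A, in 6 without KO38B, in 1 without KO28A and in 0 without KO28B. The WT clones differed in 0 without WT11B or WT40A and in 1 without WT11A or WT40B.

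In HCT116, WT6 and WT4 differed in 3 of 29 members, compared with 2.61% of all genes. *ACLY* was higher in WT6, at 6131 and 6802 in WT4 and 13319.7 and 14997 in WT6, with a log2 difference of 1.13 (SE 0.15, adjusted p = 0.00370). *SQLE* was higher in WT6 as well, by 0.98 (SE 0.16, adjusted p = 0.0119), and *TM7SF2* was lower there (adjusted p = 0.0283). For the clones KO47 and KO44 limma called 0 members, compared with 7.16% of all genes, and edgeR called 0 members. At an unadjusted p under 0.05 limma counted 3 of 29 members and 3501 of all 15404 genes tested. Rounds pair the libraries of HCT116, and with the round as a replicate block 10 members differed in each of these comparisons, while 16.2% and 21.5% of all genes did. Without KO47A, an alternative added after the data had been seen, the block called 9 members for WT6 and WT4 and 5 for KO47 and KO44, compared with 15.7% and 13% of all genes. *FASN*, *HMGCS1*, *IDI1* and *FADS1* were among the 5, with adjusted p from 0.0243 for *HMGCS1* to 0.0458 for *FASN*. With all libraries these genes were higher in KO47 than in KO44, with log2 differences of 0.45, 0.60, 0.48 and 0.56 (adjusted p with the block = 0.00309, 0.000863, 0.00173 and 0.00274). Their adjusted p without the block was 0.391, 0.271, 0.180 and 0.152. Without the block, WT6 and WT4 differed in 0 members when WT6B was left out and in 1 when WT4A or WT4B was.

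In SW480, WT5 and WT4 differed in 2 of 29 members, compared with 8.88% of all genes. These were *HSD17B7* and *ELOVL6*, both higher in WT5, by 0.62 (SE 0.18, adjusted p = 0.0415) and 0.44 (SE 0.09, adjusted p = 0.00681). The count was 7 without WT4B, 0 without WT5B and 1 without WT4A or WT5A. KO21 and KO17 differed in 7 of 29, compared with 28% of all genes. *PMVK* and *MVD* were higher in KO21, with log2 differences of 0.46 and 0.47, and *FADS1*, *FADS2*, *ACACA*, *FASN* and *DHCR7* were lower there, with −0.79, −0.71, −0.64, −0.40 and −0.32 (adjusted p from 8.20e-06 for *FADS1* to 0.0253 for *DHCR7*). *FADS2* was at 863 and 774 in KO17 and 552 and 454 in KO21, and both clones stayed below the WT libraries, at 1133 to 1507. Without KO21A these clones differed in 4 members.

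Whether the KO effect differed between lines was tested on all 24 libraries together, and these comparisons share libraries of a line. Between HT29 and SW480 the KO effect differed for 15 of 29 members, compared with 15.8% of all genes. For 14 of the 15 it was higher in HT29, among them *STARD4* with a difference of log2 fold changes of 1.94 (SE 0.38, adjusted p = 0.000829), *SQLE* with 1.76 (SE 0.31, adjusted p = 0.000235) and *ACAT2* with 1.36 (SE 0.31, adjusted p = 0.00338). *ELOVL6* was the exception, with −1.71 (SE 0.31, adjusted p = 0.000376). With the rounds of each clone averaged, *SQLE* and *ACAT2* alone were called, at an adjusted p of 0.0363 and 0.0435, the highest of their alternatives. Between HT29 and HCT116 the effect differed for 3 members, compared with 7.25% of all genes, namely *ELOVL6* with −2.67 (SE 0.31, adjusted p = 6.51e-06), *SQLE* with 1.36 (SE 0.31, adjusted p = 0.00706) and *FADS2* with −1.94 (SE 0.54, adjusted p = 0.0304). *FADS2* reached the minimum level for testing only through HCT116 and SW480. In HT29 it was at 3.84 to 15.2 in WT and 0 to 4.89 in KO libraries, 11 of 21 alternatives called it, with adjusted p up to 0.268, and it is not read as a difference between these lines. Without KO47A both this comparison and that of HCT116 with SW480 called 3 members. Between HCT116 and SW480 the effect differed for 3 members, compared with 13.2% of all genes. It was higher in HCT116 for *HMGCS1*, by 1.28 (SE 0.38, adjusted p = 0.0283), for *SREBF2*, by 0.89 (SE 0.24, adjusted p = 0.0149), and for *ELOVL6*, by 0.96 (SE 0.31, adjusted p = 0.0412). With the replicate block *ELOVL6* had an adjusted p of 0.0557 there, 9 of 22 alternatives called it, the highest adjusted p was 0.370, and with rounds averaged 0 of the 3 were called. Without WT11B or KO28B the difference between HT29 and HCT116 was called for 6 or 5 members, and that between HCT116 and SW480 for 1 without any of WT4A, WT4B, KO44B and KO47B of HCT116 and WT5B and KO21A of SW480. *ELOVL6* rose in HCT116 and SW480, with KO effects of 2.15 and 1.19, and was at −0.52 in HT29.

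The lines entered the comparison with different levels of these genes. Among WT libraries 16 of 29 members differed between HT29 and HCT116, 16 between HT29 and SW480, and 20 between HCT116 and SW480, compared with 58.4%, 60.3% and 60.5% of all genes. The polyunsaturated fatty acid desaturases were far lower in HT29, where WT libraries held 59.3 to 91.4 for *FADS1* and 3.84 to 15.2 for *FADS2*, whereas SW480 WT libraries held 4826 to 5889 and 1133 to 1507. The log2 difference between HT29 and SW480 was −6.14 (SE 0.34, adjusted p = 2.36e-13) for *FADS1* and −7.44 (SE 0.38) for *FADS2*. *FADS2* did not reach the minimum level within HT29 and was tested only through HCT116 and SW480. It is counted among the 16 of this comparison, but its p-value is not read as a test. *ELOVL5*, the elongase that acts on the products of *FADS2*, was at 0 to 2.51 in HT29 WT libraries and at 2114 to 3545 and 3358 to 3827 in those of HCT116 and SW480.

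On the scale of normalized counts per kb of exons, *SCD*, which makes monounsaturated fatty acids, led in all 3 lines with 3711 in HT29, 8750.4 in HCT116 and 1748 in SW480. *FASN* had 1196, 4857 and 736 per kb, and *ELOVL6* had 451, 257 and 56.2. HCT116 was highest for *FASN* and *SCD*, and SW480 was lowest for *FASN*, *SCD* and *ELOVL6*. The order of all 3 lines was called at each step for these genes, with log2 differences between HCT116 and SW480 of 2.69 (SE 0.22, adjusted p = 5.55e-10) for *FASN*, 2.32 (SE 0.24, adjusted p = 1.58e-08) for *SCD* and 2.19 (SE 0.22, adjusted p = 1.05e-08) for *ELOVL6*. *SQLE* ran the other way from *STARD4*, with 2759, 1316 and 728 per kb in HT29, HCT116 and SW480 for *SQLE* and 109, 322 and 885 for *STARD4*. Their log2 differences between HT29 and SW480 were 1.90 (SE 0.22, adjusted p = 7.54e-08) and −3.15 (SE 0.27, adjusted p = 6.84e-10). *MVD* was highest in HCT116, at 658 per kb, above HT29 at 238 and SW480 at 147, and these last values did not differ at the threshold (adjusted p = 0.107).

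**Figure D4:**
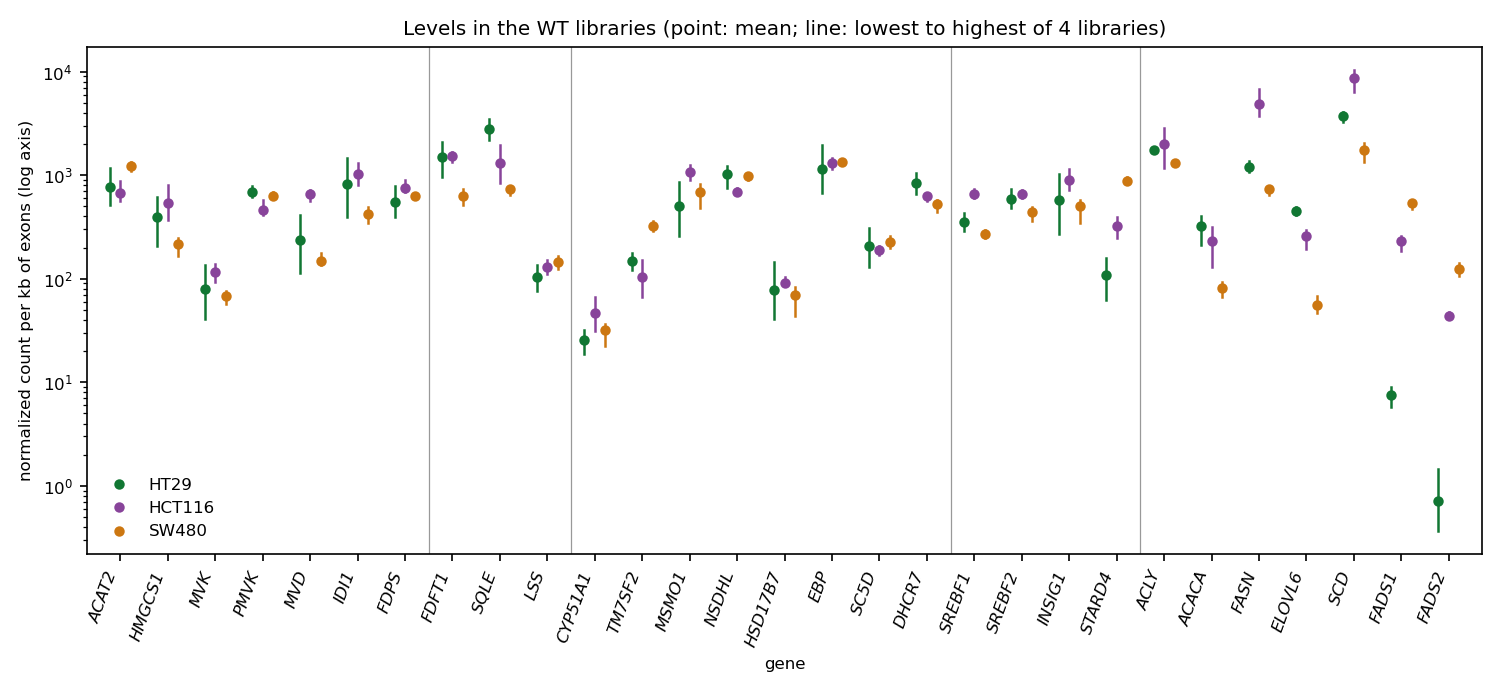
Levels of the 29 genes (x axis, grouped by role) in WT libraries, as normalized counts per kb of exons on a log axis, with points for the mean and lines from the lowest to the highest of 4 libraries of each line. *FADS1* and *FADS2* lie far lower in HT29, at 7.52 and 0.710, than in HCT116 and SW480, *STARD4* is highest in SW480 at 885, and *SCD* tops each line.

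Rounds A and B also differed in these genes. In HCT116, 18 of 29 members differed between rounds across the 4 clones, compared with 16.2% of all genes, and all 18 were higher in round B, compared with 9.43% of all genes. Without KO47A, 9 members differed, all higher in round B, and 3.65% of all genes did. The 18 comprised 9 of the 18 sterol enzymes, 3 of the 4 genes of SREBP control and transport and 6 of the 7 fatty acid genes. The largest log2 differences were 0.86 for *ACACA*, 0.81 for *CYP51A1*, 0.60 for *HMGCS1*, 0.59 for *FASN* and 0.51 for *SCD*. In HT29 limma called 0 of 28 members between rounds (0% of all genes). At an unadjusted p under 0.05 it counted 13 of the 28 and 540 of all 14921 genes tested. In SW480 it called 0 of 29 (0.0123% of all genes), and unadjusted it counted 7 of the 29 and 1092 of all 16325 genes tested. No other tool was run on this comparison, which was added after the data had been seen. For the sterol enzymes, HT29 had a median difference between rounds of 0.43, HCT116 of 0.25 and SW480 of 0.097. Both rounds held all 4 clones of each line, so that the round and the genotype are not confounded.

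The HT29 library KO38B stood apart in both directions. Compared with KO38A it held more *MVD* (3292 against 1369.7), *PMVK* (2116 against 949) and *EBP* (5216 against 1679.9), and less *ACACA* (966 against 4629.8), *LSS* (417 against 1088) and *CYP51A1* (28.5 against 82.5). The difference went with gene length over all genes tested. In KO38 the median log2 difference between rounds B and A was 0.574 for genes with under 2 kb of exons and −0.343 for genes with over 6 kb, so that short genes exceeded long genes by 0.917, whereas in the other 11 clones this measure ran from −0.476 to 0.382. Among the members it was 1.16 for the 3 short genes and −0.564 for the 11 long genes tested. The split by length was chosen after the data had been seen, and its part in the HT29 values was not tested. Between genotypes in HT29 the median log2 differences of KO and WT were 0.105, 0.0916 and −0.0724 for all short, middle (2 to 6 kb) and long genes. For the 3 short, 14 middle and 11 long members tested they were 0.410, 0.469 and −0.0808. Between genotypes in SW480 the medians were −0.174 for all short and 0.0457 for all long genes, and −0.0809, −0.721 and −0.640 for the 3 short, 14 middle and 12 long members.

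**Figure D5:**
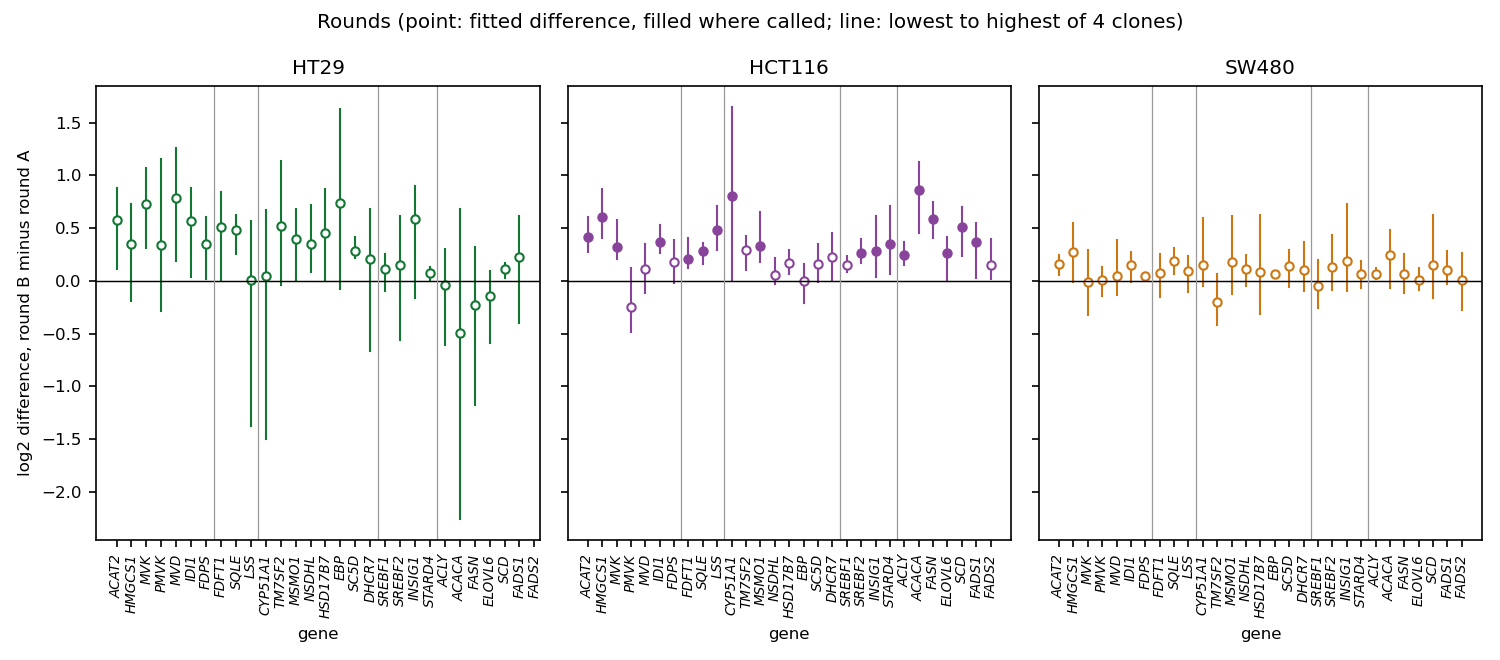
Log2 difference between rounds B and A (y axis) for each gene (x axis) in HT29, HCT116 and SW480, with points for the fitted difference, filled where the adjusted p was under 0.05, and lines from the lowest to the highest of the 4 clones. In HCT116 18 points are filled and all of these lie above 0, in HT29 the lines are long and reach below −2 for *ACACA*, and in SW480 the points lie near 0.

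Other genes of the same pathways, from lists that held no member, were counted in the same fits. In SW480, 2 of 13 tested genes of sterol synthesis, SREBP processing and sterol uptake rose and 6 fell, with a median of −0.062. Over all genes tested there, 26.1% rose and 22.1% fell. Among those that fell were *SCAP*, which escorts SREBP to its processing site, at a log2 fold change of −0.33 (SE 0.071, adjusted p = 0.00308), *SCARB1*, a receptor for high-density lipoprotein, at −0.20 (SE 0.066, adjusted p = 0.0303), and *NPC2*, which carries cholesterol out of lysosomes, at −0.78 (SE 0.25, adjusted p = 0.0298). The libraries of *NPC2* overlapped, at 12067 to 23484 in WT and 7885 to 12721 in KO libraries. *GGPS1*, which makes geranylgeranyl diphosphate, rose, with overlapping libraries and a log2 fold change of 0.24 (SE 0.087, adjusted p = 0.0415). In HCT116, 2 of 13 rose and 0 fell, compared with 8.05% and 5.93% of all genes. Among the 2 was *INSIG2*, a relative of *INSIG1*, with a log2 fold change of 0.71 (SE 0.13, adjusted p = 0.00431). In HT29 limma called 0 of 12, compared with 2.56% of all genes. At an unadjusted p under 0.05 it counted 4 of the 12 and 2417 of all 14921 genes tested.

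Of the other genes of fatty acid synthesis, elongation and activation, 9 of 19 rose and 2 fell in SW480, compared with 26.1% and 22.1% of all genes. Their median was 0.23. The acyl-CoA synthetase *ACSL5* rose from 158 to 350.4 in WT to 3402 to 3767 in KO libraries, and the acetyl-CoA synthetase *ACSS2* fell from 5092 to 5559.9 to 1439 to 1623. Their log2 fold changes were 3.99 (SE 0.24, adjusted p = 8.87e-07) and −1.86 (SE 0.065, adjusted p = 1.11e-08). In HCT116 *ACSL5* fell, at a log2 fold change of −1.58 (SE 0.39, adjusted p = 0.0303), as did the glycerol phosphate acyltransferase *GPAM*, at −1.08 (SE 0.12, adjusted p = 0.000161), while 1 of the 19, *ELOVL7*, rose. Over all genes tested there, 5.93% fell and 8.05% rose. In HT29 limma called 0 of 18, compared with 2.56% of all genes. At an unadjusted p under 0.05 it counted 6 of the 18 and 2417 of all 14921 genes tested. Of the 11 genes of the LXR, sterol esterification and efflux list, 8 were tested in SW480 and these 8 rose, compared with 26.1% of all genes, but *ABCA1* reached the minimum level only with its KO libraries and *ABCG5*, *ABCG8* and *SOAT2* were not tested. The cholesterol exporter *ABCA1* had 8.09 and 8.27 in WT4 and 27.0 and 17.6 in WT5, and 718 and 789 in KO17 and 584 and 501 in KO21. The WT libraries held few reads of this gene, and the log2 fold change on the scale of the value plus 1 was 5.46 (SE 0.35, adjusted p = 9.69e-07). *ABCG1*, another exporter, had a log2 fold change of 4.12 (SE 0.16, adjusted p = 1.96e-08), the LXR gene *NR1H3* of 1.78 (SE 0.10, adjusted p = 3.55e-07), the apolipoprotein gene *APOE* of 1.52 (SE 0.42, adjusted p = 0.0156) and the sterol acyltransferase *SOAT1* of 0.64 (SE 0.060, adjusted p = 1.10e-05). In HCT116 and HT29 limma called 0 of 7 and 0 of 9 genes of this list, compared with 14% and 2.56% of all genes. It counted 0 of them at an unadjusted p under 0.05 in both lines.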

How the data were processed

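Poly(A) RNA of 24 libraries was made with TruSeq RNA v2, which does not mark the strand. Per the labels and the study's methods, the authors aligned reads with STAR 2.7.5b to GRCh37, counted them per gene with featureCounts 2.0.1 and normalized with DESeq2, given as version 2.11.40.6 in the submitters' processing notes. The deposited values are a signal, that is read counts per gene scaled by a size factor of each library. Low values were whole multiples of what 1 read is worth in 24 of 24 libraries (tolerance 0.1 read), which gave the reads per library, 22297049 to 29068378. The tables of the authors' own comparisons (means, fold changes and p-values) were not used.

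Tests used limma 3.58.1 in R 4.3.3, with a trend and robust variances, on log2(value + 1), so that changes of low genes are understated. Genes were tested where 4 or more libraries reached a value of 10. Adjusted p-values are Benjamini-Hochberg over all genes tested, called under 0.05. KO and WT were compared within each line, clones within each genotype, and lines in a fit of all 24 libraries. Alternatives used edgeR 4.0.16 or DESeq2 1.42.0 on the recovered reads, other pseudocounts and filters, the round as a replicate block, rounds averaged, and each library or clone left out. Scripts were tested on simulated data.

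Whether round letters pair libraries was checked from the log2 differences between rounds A and B of each clone, correlated between clones of a line. It was over 0.1 for 6 of 6 pairs of clones in HCT116 (0.182 to 0.374), 2 of 6 in HT29 and 1 of 6 in SW480. Rounds were thus taken as pairs in HCT116, but the main fits of KO against WT hold no term for the round. The round as a replicate block was an alternative there. It called 4 members, with *ACAT2* in place of *SQLE*. All members are accounted for. Values per library are given for at most 4 rises and 4 falls per line among called genes whose libraries did not overlap, for the 4 clearest differences between lines, and always for *SREBF1*, *SREBF2* and *INSIG1*, with other genes added after their values were seen. The members and lists were chosen with earlier results of these data known. RefSeq promoters are on GRCh38.p14 and gene positions on GRCh37. Some genes of the other pathway lists are not reported here.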

Additional observations from a re-analysis of the deposited data

Results flagged for a closer look

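In 9 of 172 groups of 4 libraries, the highest or lowest library stood far from the other 3, by a gap over Dixon's critical value for its share of the range of the group, which chance gives in about 1 of 20 groups. Of these, 4 were high values of HT29 KO38B, namely *ACAT2* at 3449 (others 1872 to 2098), *MVD* at 3292 (others 1203 to 1369.7), *HSD17B7* at 832 (others 441 to 454) and *EBP* at 5216 (others 1679.9 to 2194). Low values of HT29 KO38A were found for *FDPS* at 1744 (others 2233 to 2272) and *MSMO1* at 1538 (others 2060.1 to 2112). The others were *MVD* in SW480 WT4B at 836 (others 639 to 662), *FDPS* in HCT116 WT6B at 3329.9 (others 2551 to 2626) and *SREBF1* in SW480 KO21A at 3257 (others 2961 to 2999).

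The KO effect differed between lines by limma for 21 pairs of a gene and 2 lines, as log2 differences with their adjusted p. For HT29 minus HCT116 they were *SQLE* 1.36 (adjusted p = 0.00706), *ELOVL6* −2.67 (adjusted p = 6.51e-06) and *FADS2* −1.94 (adjusted p = 0.0304). For HT29 minus SW480 they were *ACAT2* 1.36 (adjusted p = 0.00338), *HMGCS1* 1.54 (adjusted p = 0.00700), *MVK* 1.33 (adjusted p = 0.00781), *MVD* 1.30 (adjusted p = 0.0318), *IDI1* 1.59 (adjusted p = 0.00608), *FDPS* 0.76 (adjusted p = 0.0160), *SQLE* 1.76 (adjusted p = 0.000235), *TM7SF2* 1.019 (adjusted p = 0.0456), *MSMO1* 1.25 (adjusted p = 0.0162), *HSD17B7* 1.53 (adjusted p = 0.0136), *SC5D* 0.94 (adjusted p = 0.0144), *DHCR7* 0.87 (adjusted p = 0.0213), *INSIG1* 1.51 (adjusted p = 0.0101), *STARD4* 1.94 (adjusted p = 0.000829) and *ELOVL6* −1.71 (adjusted p = 0.000376). For HCT116 minus SW480 they were *HMGCS1* 1.28 (adjusted p = 0.0283), *SREBF2* 0.89 (adjusted p = 0.0149) and *ELOVL6* 0.96 (adjusted p = 0.0412). *FADS2* reached the minimum level for testing only through HCT116 and SW480, its HT29 libraries held few reads, 11 of 21 alternatives called it, and it is not read as a difference. The adjusted p of these differences was highest with the rounds of each clone averaged, where 3 of the 21 stayed called.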

How the results depend on the processing

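With the rounds of each clone averaged, the called members were 18 in SW480, 1 in HCT116 and 0 in HT29 for KO against WT, 10 for WT HT29 against WT HCT116, and 1, 2 and 0 for the KO effect of HT29 minus HCT116, HT29 minus SW480 and HCT116 minus SW480. With the clone as a random effect HCT116 had 1. The cause was not tested, and these fits use fewer independent units. With the round as a replicate block, the pairs of clones differed in 5 members for WT40 against WT11, 10 for WT6 against WT4, 10 for KO47 against KO44 and 4 for WT5 against WT4 of SW480, and no other count moved by over 1.5 times. With the block and without the HCT116 library KO47A, added after the data had been seen, the last counts for HCT116 were 9 (WT6 against WT4) and 5 (KO47 against KO44), and without KO47A the rounds of HCT116 differed in 9 members instead of 18. In HT29 and SW480 the rounds were not taken as pairs, although the correlation of the round differences of 2 clones was over 0.1 for 2 of 6 and 1 of 6 pairs. The highest was 0.424 in HT29 and 0.127 in SW480. A pseudocount of 0.1 left 1 member for WT5 against WT4. Leaving out 1 library or clone gave 0 to 2 called members in HT29, 2 to 5 in HCT116 and 20 to 26 in SW480 for KO against WT. For clones it gave 0 to 1 (WT40 against WT11), 0 to 16 (KO38 against KO28), 0 to 2 (WT6 against WT4), 0 to 0 (KO47 against KO44), 0 to 7 (WT5 against WT4) and 4 to 6 (KO21 against KO17). For differences of the KO effect it gave 2 to 6 (HT29 and HCT116), 13 to 16 (HT29 and SW480) and 1 to 4 (HCT116 and SW480), and for WT levels 12 to 18, 13 to 18 and 18 to 21 in the same order. Of the values of single members, 613 in HT29, 593 in HCT116 and 622 in SW480 kept direction and call, 3, 14 and 5 gained the call, 0, 31 and 11 lost it, and none that was called changed sign. Where a clone was left out, the remaining clone stood for its genotype. The low level of *FADS2* limits its values in HT29, where few reads were counted.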

Other observations

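Single HT29 clones held very different levels of genes that handle sterols, with no test of these differences. *ABCG1*, a cholesterol exporter, was at 93.1 and 25.3 in WT11 and 1287 and 1059.8 in WT40, and at 661 and 378 in KO28 and 7.59 and 6.48 in KO38. *SOAT1*, which esterifies cholesterol, was at 91.2 and 43.6 in WT11 and 62.2 and 68.9 in WT40, and at 35.2 and 37.2 in KO28 and 457 and 417 in KO38. KO38 thus had the lowest *ABCG1* and the highest *SOAT1* values of the 4 clones. Both genes were chosen after their values were seen.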
